A study of Homo sapiens with 118 samples.

Results

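The common response of mocetinostat and tacedinaline, the benzamides among 8 histone deacetylase inhibitors of the series, was measured in 12 of its 118 libraries. The members were picked by label, and they and the gene lists were chosen with earlier results of these data known. They were the second-highest concentration (C4) of each chemical, 6 libraries in all, against its lowest concentration (C1), 6 libraries in all. The cells were HepaRG, an established human liver cell line, thawed as differentiated cells and kept in culture for 7 days before exposure. Mocetinostat was given at 2.5 µM (C4) or 0.177222 µM (C1) and tacedinaline at 30.87 µM (C4) or 1.143333 µM (C1), for 72 h with daily renewal in induction medium. Each of the 4 groups held 3 libraries, 1 from each of 3 HepaRG batches. Solvent-control libraries were not analysed here, so every difference is between concentrations of the same chemical, and all 12 libraries had been exposed to an inhibitor. The mocetinostat libraries lay on plate H and the tacedinaline libraries on plate E, so plate and chemical cannot be told apart, but each difference between C4 and C1 was taken within a plate. The whole-transcriptome TempO-Seq panel read pairs of detector probes that are ligated side by side on a transcript, and a feature below is 1 such probe pair.

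Histone deacetylases remove acetyl groups from lysines of histones and other proteins, and acetylated histones mark open, transcribed chromatin. The class I enzymes HDAC1, HDAC2 and HDAC3 work inside corepressor complexes (NuRD, SIN3, CoREST and NCOR), and benzamides act mainly on these enzymes, unlike hydroxamates such as vorinostat. Both chemicals carry an aminophenyl group with the amine next to the amide nitrogen, which holds the zinc of the enzyme. They differ at the other end of the benzoyl ring, where tacedinaline has a small acetylamino group and mocetinostat has a methylene-linked aminopyrimidine that bears a pyridine. Differentiated HepaRG cultures hold hepatocyte-like and biliary-like cells and are used because they keep many drug-metabolising enzymes of the liver.

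The 12 libraries held between 1243102 and 5220707 counts, and the lowest total was that of tacedinaline C1, batch 1. Across features, log2 levels of libraries of the same group had a Pearson r of 0.938 to 0.965. Between the chemicals r was 0.928 to 0.963 at C1 and 0.922 to 0.945 at C4. Pairs of a C1 and a C4 library, of the same chemical or not, had an r of 0.807 to 0.855. Genes are not independent replicates, so these values are a description. The hepatocyte label was borne out at C1, where the 8 hepatocyte markers took 3.58% to 4.96% of all counts. In bulk lysates, fewer cells of a type and less RNA per cell cannot be told apart.

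Of 12935 features tested, 5227 (40.4%) differed between C4 and C1 over both chemicals. A feature was called where edgeR's quasi-likelihood test gave a Benjamini-Hochberg adjusted p below 0.05 and the level changed 1.5-fold or more. There were 2606 rising features (20.1%) of 2456 genes and 2621 falling features (20.3%) of 2415 genes. Rising features were 49.9% of the calls, and 63% when libraries were scaled by their totals alone. Among rising features, 1489 moved over 2-fold, 457 over 4-fold and 119 over 16-fold. Among falling features the numbers were 1792, 776 and 189. In 1566 of the rising and 1737 of the falling features, the 6 C4 libraries did not overlap with the 6 C1 libraries, where over all tested features 13.2% lay wholly above and 14.2% wholly below.

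Fitted alone, mocetinostat changed 4559 of 11827 features (38.5%) and tacedinaline 4118 of 11853 (34.7%). Of the common rising features, 1317 (50.5%) were called rising in each chemical by itself, 556 in mocetinostat only, 398 in tacedinaline only and 335 in neither. Of the common falling features, 1616 (61.7%) were called in each chemical, 481 in mocetinostat only, 273 in tacedinaline only and 251 in neither. Missing the threshold in 1 chemical does not show that it left the feature alone. No common call was opposed by a call in either chemical. Counted from the separate fits, the shared rising features were 61.0% of those of mocetinostat and 66.9% of those of tacedinaline, and the shared falling features 67.4% and 75.2%. Over the 11407 features of both fits, a single one was called in opposite directions. ZNF273, a zinc finger gene, measured 18.6, 26.9 and 12.2 CPM (counts scaled to library size) at mocetinostat C1 and 46.1, 50.4 and 48.3 CPM at C4, a log2 change of 1.26 (SE 0.275, adjusted p = 0.00118). It measured 28.2, 41.7 and 34.1 CPM at tacedinaline C1 and 16.8, 18.3 and 26.1 CPM at C4, a log2 change of -0.79 (SE 0.282, adjusted p = 0.0261). Because the doses of the chemicals differ, the values stand side by side here and below, and no difference between the chemicals was tested.

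**Figure D1:**
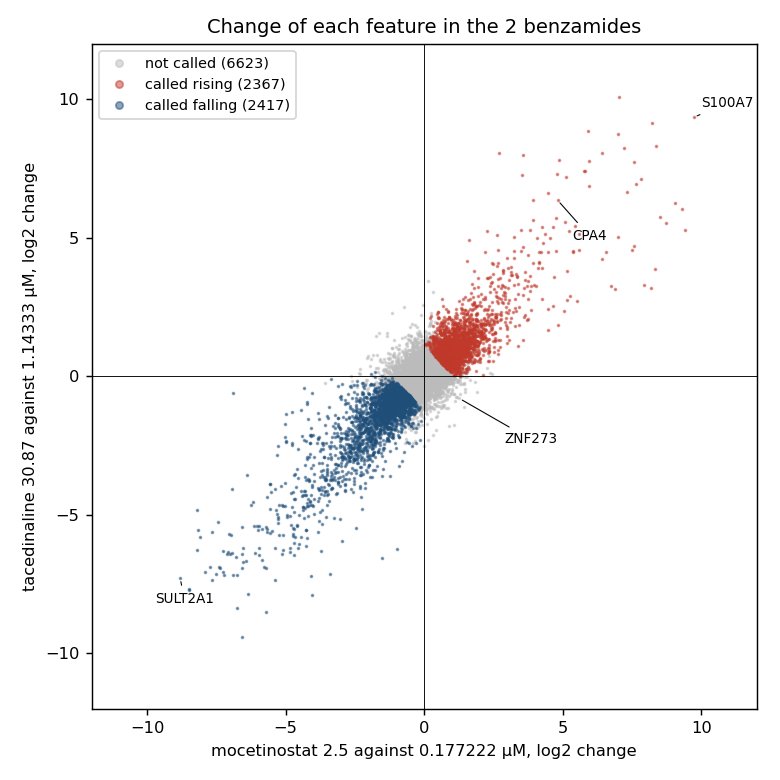
Log2 change from C1 to C4 of each feature in mocetinostat (horizontal axis) and in tacedinaline (vertical axis), for the 11407 features in both separate fits, coloured by the call of the fit over both chemicals. The called features lie mostly along the diagonal, which a fit over both chemicals favours by design. ZNF273, the 1 feature called in opposite directions, lies at the lower right.

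Of the 10 genes that rose most, 9 lay below 4 CPM in every C1 library, and several are known from tissues other than liver. S100A7, a calcium-binding protein of inflamed skin, had 0 counts in all 6 C1 libraries. At C4 it reached 17.8, 31.1 and 34.9 CPM in mocetinostat batches 1 to 3 and 27.25, 30.3 and 20.9 CPM in tacedinaline. Against a floor of 3 counts per library it was at least 37.3-fold higher in mocetinostat and at least 19.2-fold higher in tacedinaline (adjusted p = 1.32e-11). PRR20G, a gene of the PRR20 family of near-identical copies whose probes may share reads, lay at 0.258, 0 and 1.90 CPM at mocetinostat C1 and at 184.8, 85.8 and 371 CPM at C4. In tacedinaline it went from 1.66, 0 and 0 CPM to 111, 88.8 and 266 CPM. The C4 libraries of each chemical differed several-fold among themselves but lay far above C1 (log2 change 8.50, SE 0.522, adjusted p = 4.34e-13). The promoters of these 2 genes, from 250 bases before to 50 bases after the start, are printed from RefSeq (GRCh38.p14, chr1:153460602-153460901 and chr3:127287997-127288296, both on the minus strand). Capitals mark the TATA box letters TATAAA, the CAAT box letters CCAAT, the GC box letters GGGCGG and the E-box letters CACGTG, each searched on both strands. The S100A7 promoter has a TATAAA that begins 28 bases before the start, and PRR20G holds the other three, its GC box on the opposite strand.
S100A7: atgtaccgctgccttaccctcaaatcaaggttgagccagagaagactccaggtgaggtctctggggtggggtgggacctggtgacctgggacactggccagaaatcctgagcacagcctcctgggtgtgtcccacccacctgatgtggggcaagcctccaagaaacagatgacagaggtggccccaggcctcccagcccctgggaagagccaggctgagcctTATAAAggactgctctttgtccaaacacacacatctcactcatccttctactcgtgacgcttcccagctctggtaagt
PRR20G: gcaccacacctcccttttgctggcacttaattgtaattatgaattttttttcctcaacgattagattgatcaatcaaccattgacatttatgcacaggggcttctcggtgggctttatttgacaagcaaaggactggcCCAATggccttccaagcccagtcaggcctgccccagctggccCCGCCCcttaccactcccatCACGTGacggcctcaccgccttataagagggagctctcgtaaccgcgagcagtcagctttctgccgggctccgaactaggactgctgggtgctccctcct

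Hormone and vesicle genes followed. CGA, the common alpha subunit of the glycoprotein hormones, lay at 0.516, 0 and 0 CPM at mocetinostat C1 and at 36.5, 27.3 and 15.8 CPM at C4. In tacedinaline it had 0 counts at C1 and 56.5, 42.6 and 33.0 CPM at C4, at least 32.4-fold higher, and the C1 and C4 libraries were far apart in both chemicals (adjusted p = 5.56e-13). SYT11, a synaptotagmin of vesicle traffic, rose from at most 0.775 CPM in any C1 library to 54.6, 52.3 and 62.2 CPM in mocetinostat and 54.9, 38.7 and 45.8 CPM in tacedinaline (log2 change 7.56, SE 0.365, adjusted p = 3.25e-15). CCK, the precursor of cholecystokinin, rose from 0.775, 1.32 and 2.71 CPM to 104, 66.7 and 110.2 CPM in mocetinostat. In tacedinaline it rose from 0.829, 0.579 and 0.242 CPM to 68.9, 95.5 and 92.1 CPM (log2 change over both 6.32, SE 0.291, adjusted p = 1.21e-15). The C4 levels of SYT11 and CCK overlapped between the chemicals. GPR50, an orphan relative of the melatonin receptors, stood at 40.5, 32.7 and 58.7 CPM at mocetinostat C4 and 26.9, 35.9 and 68.8 CPM at tacedinaline C4, from at most 1.29 CPM at C1 (log2 change 6.30, SE 0.424, adjusted p = 2.93e-12).

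Of the other 4 leading genes, 1 is again an S100 protein and 2 are proteases. S100P was at 22.4, 28.7 and 16.6 CPM at mocetinostat C4, where C1 held 4 counts in all. At tacedinaline C4 it was at 12.0, 21.2 and 21.5 CPM, at least 13.4-fold above a C1 with 0 counts (adjusted p = 1.39e-10). MMP10, a secreted matrix metalloproteinase, rose from 3.87, 1.54 and 1.90 CPM to 61.0, 78.5 and 79.9 CPM in mocetinostat and from 0, 0 and 1.45 CPM to 137.9, 198 and 146 CPM in tacedinaline. ACTBL2, an actin-like gene, rose to between 29.6 and 42.6 CPM in mocetinostat and between 60.2 and 62.9 CPM in tacedinaline. CPA4, a carboxypeptidase, was the most abundant of the 10 and was already measured at C1, at 8.26, 14.5 and 11.7 CPM in mocetinostat and 9.95, 11.9 and 7.26 CPM in tacedinaline. At C4 it reached 302, 318 and 396 CPM and 918, 889 and 573 CPM, respectively, a log2 change of 4.81 (SE 0.220) in mocetinostat and 6.36 (SE 0.221) in tacedinaline. Both MMP10 and CPA4 were higher in every tacedinaline C4 library than in every mocetinostat C4 library, a gap that was not tested.

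In all, 31 features had at most 3 counts in every C1 library of both chemicals and were called rising in each chemical. Such features pass the filter on low counts only through their C4 level, so their number is a description. Beside SYT11, CGA and S100A7, the highest by the smaller of the 2 folds were LYZL4, a lysozyme-like gene known from testis, and GOLGA6L7, a golgin-like gene of a family with close copies. LYZL4 averaged 20.9 ± 6.82 CPM at mocetinostat C4 and 17.6 ± 5.90 CPM at tacedinaline C4 (SD, n = 3 each). In mocetinostat, with 0 counts at C1, it was at least 27.9-fold higher. In tacedinaline, with 2 counts at C1, the ratio was 73.3 (95% exact interval 20.0 to 610.4, counting error only). GOLGA6L7 averaged 13.8 ± 3.37 CPM and 17.4 ± 4.38 CPM, at least 18.4-fold higher in mocetinostat.

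The genes that fell most are hepatocyte enzymes and transporters, and at C4 several of them were at or near 0. CYP3A4, the main drug-oxidising cytochrome P450 of the liver, was at 75.6, 80.3 and 55.6 CPM at mocetinostat C1 and 0, 0.536 and 0.273 CPM at C4. In tacedinaline it went from 105, 65.8 and 47.9 CPM to 0.802, 0.481 and 0.303 CPM (log2 change over both -7.43, SE 0.338, adjusted p = 9.81e-16). Its second feature, with 459 to 848 CPM at C1, fell to between 2.93 and 10.3 CPM. SULT2A1, the sulfotransferase of bile acids and steroids, differed already at C1, with 6.20, 26.4 and 9.49 CPM in mocetinostat and 64.7, 115 and 69.5 CPM in tacedinaline. At C4 it had 0 counts in all 3 mocetinostat libraries, at least 17.4-fold lower, and 0.401, 0.481 and 0.606 CPM in tacedinaline (log2 change in tacedinaline alone -7.28, SE 0.416). The promoters of CYP3A4 (chr7:99784135-99784434) and SULT2A1 (chr19:47886266-47886565), both on the minus strand and from the same source, are shown to set against those of the silent genes above. CYP3A4 has a TATAAA that begins 29 bases before the start and 0 CpG, and SULT2A1 has none of the 4 motifs.
CYP3A4: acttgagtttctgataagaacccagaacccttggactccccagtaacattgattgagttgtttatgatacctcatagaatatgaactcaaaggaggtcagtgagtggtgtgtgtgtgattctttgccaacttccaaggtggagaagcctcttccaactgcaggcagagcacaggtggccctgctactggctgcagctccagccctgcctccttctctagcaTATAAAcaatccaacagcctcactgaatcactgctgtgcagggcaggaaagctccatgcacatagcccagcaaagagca
SULT2A1: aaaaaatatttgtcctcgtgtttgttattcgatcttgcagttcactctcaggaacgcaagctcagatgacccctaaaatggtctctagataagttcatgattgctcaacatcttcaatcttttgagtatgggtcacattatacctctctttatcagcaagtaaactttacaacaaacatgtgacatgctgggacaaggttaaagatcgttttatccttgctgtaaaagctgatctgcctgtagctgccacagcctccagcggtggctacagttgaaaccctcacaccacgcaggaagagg

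**Figure D2:**
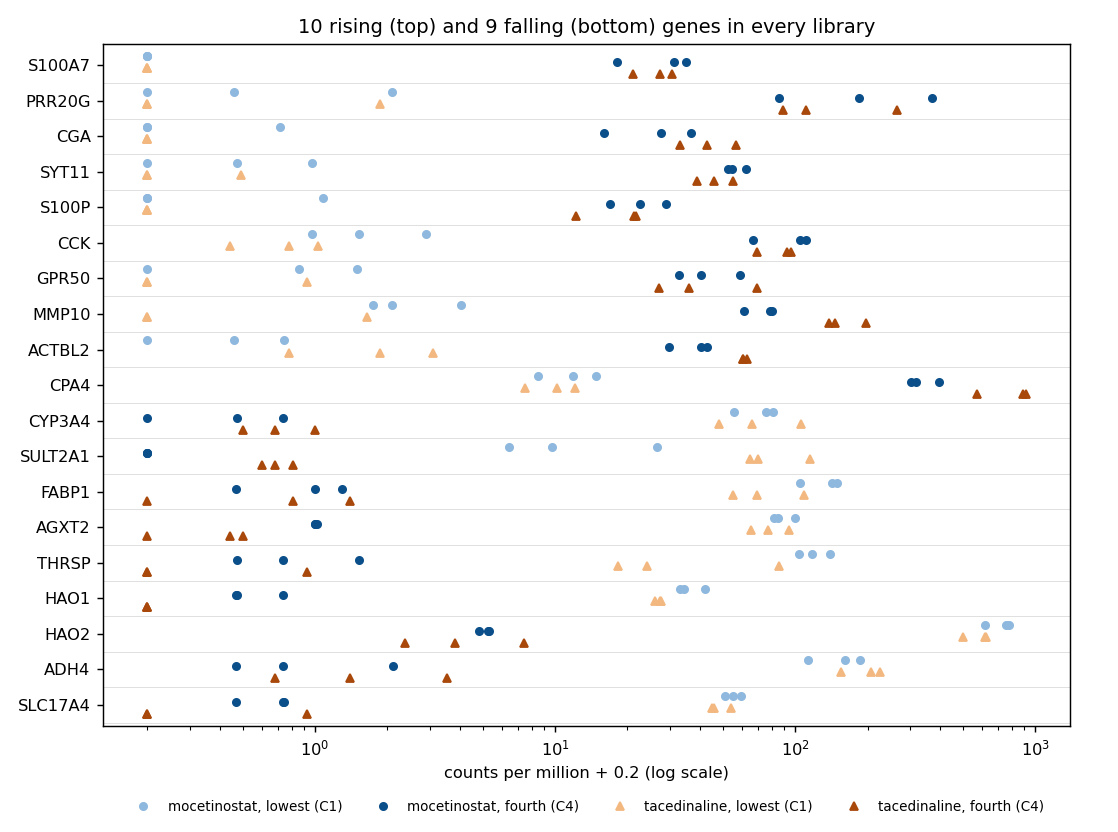
Level of the 10 most strongly rising genes and 9 of the 10 most strongly falling genes in each of the 12 libraries, in CPM plus 0.2 on a log axis, so that points at the left edge are libraries with 0 counts. Light symbols are C1 and dark symbols C4, and for all 19 genes every C4 library lies on the same side of every C1 library, which the choice of these genes required.

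Enzymes of fuel and glyoxylate metabolism filled most of the remaining places. FABP1, the fatty acid carrier of hepatocytes, fell from 142, 105 and 149 CPM to 0.266, 0.804 and 1.09 CPM in mocetinostat and from 109, 69.0 and 54.9 CPM to 1.20, 0 and 0.606 CPM in tacedinaline. HAO2, a peroxisomal hydroxyacid oxidase, fell from 774, 617 and 755 CPM to 5.06, 5.09 and 4.64 CPM and from 625, 618 and 502 CPM to 7.21, 2.17 and 3.64 CPM. HAO2 showed the tightest change of the 10, with a log2 change of -7.22 (SE 0.206) in mocetinostat and -7.18 (SE 0.239) in tacedinaline. HAO1, the glycolate oxidase of hepatocytes, lay between 25.9 and 41.8 CPM at C1 and had 0 counts in all 3 tacedinaline C4 libraries, at least 28.4-fold lower. AGXT2, a mitochondrial aminotransferase, ADH4, an alcohol dehydrogenase, and SLC17A4, an organic anion transporter, fell from at least 44.6 CPM in every C1 library to at most 3.33 CPM in every C4 library. THRSP, a thyroid hormone-responsive regulator of fat synthesis, fell in both chemicals from unequal starts, 139, 103 and 117 CPM in mocetinostat and 85.4, 24.0 and 18.2 CPM in tacedinaline.

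Of the 4 class I deacetylases, 2 rose and none fell, beside 20.1% rising and 20.3% falling over all features. HDAC3, the catalytic subunit of the NCOR complex, rose from 55.0, 68.9 and 58.3 CPM to 225, 257 and 209 CPM in mocetinostat. In tacedinaline it rose from 70.5, 51.3 and 56.9 CPM to 159, 279.6 and 188 CPM (log2 change over both 1.87, SE 0.138, adjusted p = 1.75e-11). HDAC2 rose from 333, 416 and 372 CPM to 766, 644 and 724 CPM and from 274, 324 and 281 CPM to 430.4, 520.2 and 440.0 CPM (log2 change 0.79, SE 0.102, adjusted p = 4.11e-07). All C4 libraries were above all C1 libraries for both genes. HDAC1 (log2 change 0.28, SE 0.263, adjusted p = 0.402) and HDAC8 (-0.26, SE 0.244, adjusted p = 0.390) did not pass the test, although HDAC1 was called rising in tacedinaline alone (0.90).

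Among 24 tested features of corepressor subunits, 7 rose, 4 fell and 13 did not pass, with a median log2 change of 0.32 (0.05 over all features tested). Over all features 20.1% rose and 20.3% fell, so the counts of this small list are near the background, and its members are given as single values. The 4 that fell, CHD3 and the 3 MTA genes, encode NuRD subunits. CHD3, 1 of its remodelling ATPases, fell from 86.5, 92.2 and 87.0 CPM to 14.6, 17.4 and 18.0 CPM in mocetinostat and from 68.8, 89.2 and 77.7 CPM to 16.4, 11.1 and 19.1 CPM in tacedinaline (log2 change -2.39, SE 0.162, adjusted p = 3.08e-12). MTA1, MTA2 and MTA3, the scaffolds of NuRD, had log2 changes of -0.64, -0.84 and -1.09, and MTA1 lost its call without batch 2, without tacedinaline C4 batch 2 and with libraries scaled by totals alone. CHD4, the other main ATPase of NuRD, did not pass with either feature (0.16 and 0.24). The rising subunits included RCOR1 of CoREST (1.48), SAP30 (1.12) and SIN3A (0.98) of SIN3, RBBP7 (1.27), which belongs to both SIN3 and NuRD, and GPS2 (1.08) and TBL1X (0.91) of NCOR. The seventh was GATAD2B, also of NuRD (0.61), which lost its call without batch 2, without mocetinostat C1 batch 2 and without 3 of the tacedinaline libraries in turn. Of 10 tested features of histone acetyltransferases, KAT6A (1.23) and HAT1 (0.86) rose, and KAT2B (-1.06), EP300 (-0.79) and KAT7 (-0.59) fell, again near the background of 20.1% rising and 20.3% falling. The call of KAT7 was lost under 10 alternatives, among them the fit with batch as a block and those without batch 2 or batch 3.

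All 5 tested metallothioneins rose, small proteins that bind zinc and copper and whose close copies may share reads (median log2 change 3.07). MT2A lay at 61.2, 51.1 and 66.7 CPM at mocetinostat C1 and 934, 943 and 1021 CPM at C4. In tacedinaline it lay at 126, 89.8 and 153 CPM at C1 and 1124, 1081 and 1488 CPM at C4 (log2 change over both 3.66, SE 0.148, adjusted p = 1.11e-16). Of 7 tested features of linker and replication-independent histones, 3 rose and 4 did not pass, where 20.1% of all features rose. The 3 were H1F0, the linker histone of resting cells (0.99), H2AFV, which encodes an H2A.Z (1.36), and H2AFY, which encodes macroH2A (0.73). Of 10 tested features of acetyl-lysine readers and elongation factors, CDK9 rose (0.91) and 9 did not pass, among them BRD2 (-0.05), HEXIM1 (-0.13) and MYC (-0.08). The call of CDK9 was lost without batch 2 and with thinned counts.

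Neuronal genes rose from very low levels. Of 36 features on the panel, 13 had enough counts to be tested, a filter that a gene could pass through its C4 level alone. Of these 13, 8 rose and none fell, beside 20.1% rising and 20.3% falling over all features. The filter favours rising members, so the count is a description. SCG2, a granin of secretory granules, lay at 2.58, 0.880 and 1.08 CPM at mocetinostat C1 and 78.5, 69.9 and 77.5 CPM at C4. In tacedinaline it went from 2.49, 2.61 and 0.484 CPM to 59.7, 58.2 and 59.1 CPM (log2 change over both 5.40, SE 0.270, adjusted p = 6.24e-15). NEFL, the light neurofilament, reached 23.2, 16.9 and 17.7 CPM in mocetinostat and 10.0, 9.87 and 19.4 CPM in tacedinaline, from at most 1.21 CPM. The rest of the 8 were both features of SYP (synaptophysin), GAP43, VGF, STMN3 and 1 of the 2 features of MAPT, of which VGF lost its call without batch 2 and STMN3 without batch 1. The neuronal list as a whole stayed a minor part of the RNA, at 0.0192% to 0.0237% of counts at C4 against 0.00393% to 0.00523% at C1. Only 4 of its features were called rising when counts were thinned to the lowest library total.

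The transcription factors that set hepatocyte identity fell. Of 22 tested features of 17 genes, 20 fell and 2, of FOXA3 and GATA6, did not pass (median log2 change -2.32, or -2.19 with the 2 features at 0 counts in all C4 libraries set to their bound). Over all features tested, 20.3% fell and 20.1% rose. HNF4A, the nuclear receptor at the centre of the hepatocyte network, fell from 21.9, 20.5 and 27.1 CPM to 0, 0.804 and 1.09 CPM in mocetinostat and from 14.1, 17.4 and 37.5 CPM to 4.01, 0.241 and 0.909 CPM in tacedinaline (log2 change over both -4.47, SE 0.463, adjusted p = 1.05e-08). NR1H4, the bile acid receptor FXR, fell from 56.5, 39.4 and 72.1 CPM to 0, 1.07 and 2.18 CPM and from 59.7, 53.9 and 39.9 CPM to 0.401, 0 and 0 CPM (log2 change -6.40, SE 0.407, adjusted p = 8.98e-13). Both features of the xenobiotic receptor NR1I2 (PXR) and both of NR1I3 (CAR) fell as well, 1 of the NR1I3 features to 0 counts in all 6 C4 libraries. Smaller falls were seen for RXRA (-1.97), NR5A2 (-1.50) and CEBPA (-0.99).

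**Figure D3:**
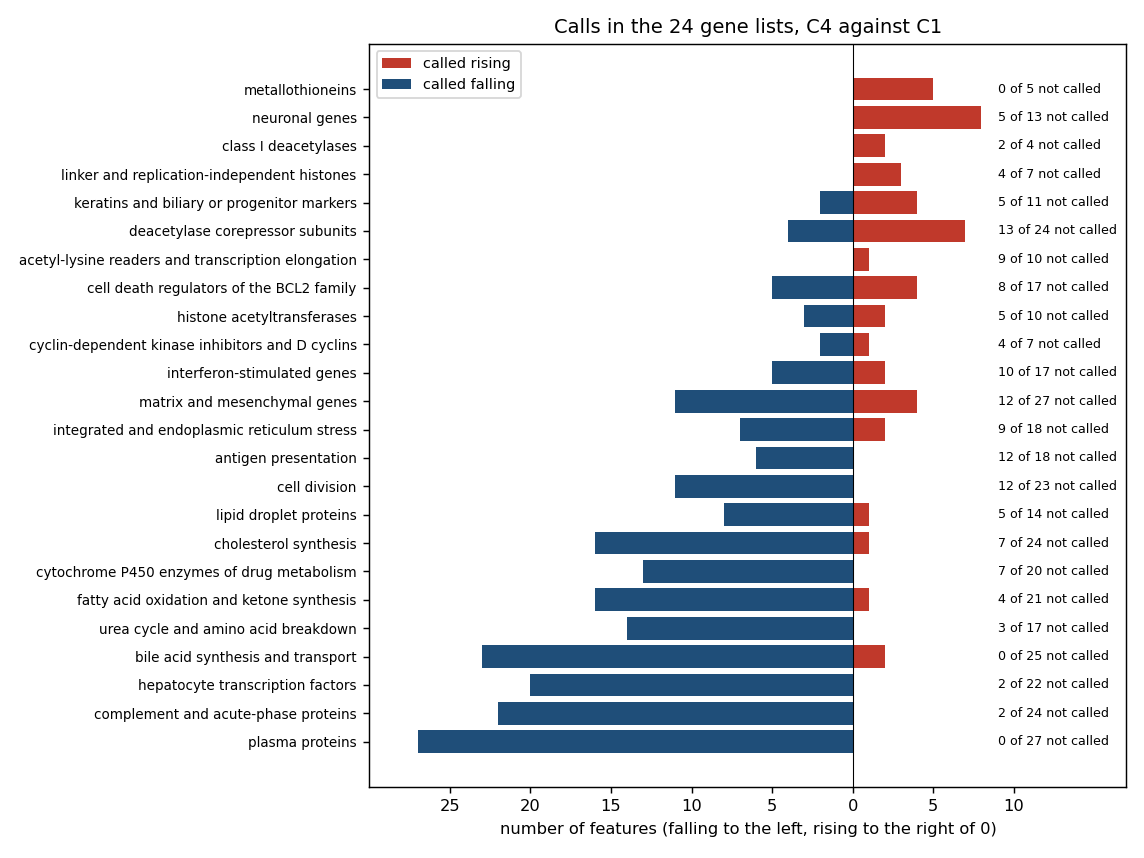
Number of features called rising (right of 0) and falling (left of 0) at C4 against C1 in each of 24 gene lists, with the number not called at the right. Lists of hepatocyte function lie almost wholly on the falling side, with 27 of 27 plasma protein features falling, and the metallothioneins and neuronal genes on the rising side. Of all features tested, 20.1% rose and 20.3% fell.

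Of 20 tested features of drug-metabolising P450 enzymes, 13 fell and 7 did not pass (median log2 change -3.54). These counts, and those of the bile acid list below, stand beside 20.3% falling and 20.1% rising over all features. The 13 came from the CYP2B, CYP2C, CYP2E and CYP3A families, whose members have similar sequences. CYP2C8 fell from 73.3, 112 and 62.6 CPM to 3.46, 0.804 and 0.273 CPM in mocetinostat and from 219, 206 and 128 CPM to 1.20, 1.20 and 2.12 CPM in tacedinaline. CYP1A1 (0.31), CYP1A2 (-0.95), CYP1B1 (-0.36), CYP2J2 (-0.45) and both features of the reductase POR (-0.10 and 0.35) did not pass, nor did 1 of 2 features of CYP2C19 (0.06). Of 25 bile acid features, 23 fell and 2 rose (median log2 change -4.28). CYP7A1, the rate-limiting enzyme of bile acid synthesis, fell from 82.9, 64.3 and 87.8 CPM to 0.266, 1.07 and 0.546 CPM and from 64.7, 60.3 and 34.4 CPM to 0.802, 0.722 and 0.303 CPM (log2 change -6.67, SE 0.298, adjusted p = 7.07e-16). BAAT, which conjugates bile acids, fell from 1557, 1254 and 1481 CPM to 18.6, 13.9 and 18.6 CPM and from 1086, 963 and 828 CPM to 16.0, 6.50 and 7.58 CPM. The export pump ABCB11 fell with all 4 of its features and the uptake carrier SLC10A1 with its 1 feature. The 2 rising features were both of ABCC4, an efflux pump of the basolateral membrane (0.69 and 0.97), and the first lost its call without batch 1, without batch 2, without tacedinaline C1 batch 2 and with thinned counts.

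All 27 plasma protein features fell (median log2 change -2.70), and together they went from 11.4% to 13.2% of all counts at mocetinostat C1 to 2.42% to 3.15% at C4, and from 8.15% to 10.3% to 1.15% to 1.44% in tacedinaline. ALB (albumin) went from 33130, 29950 and 22580 CPM to 4823, 4176 and 3230 CPM and from 27660, 21250 and 19430 CPM to 1385, 1393 and 1229 CPM (log2 change over both -3.46, SE 0.181, adjusted p = 1.65e-14). TTR (transthyretin) fell least, with a log2 change of -0.86 in mocetinostat and -1.48 in tacedinaline. For ALB, HP, FGA and SERPINA1 the fall in tacedinaline was the larger (-4.11, -3.38, -3.37 and -2.18) beside mocetinostat (-2.86, -2.53, -2.09 and -0.91), at other doses and without a test. Of 24 tested features of complement and acute-phase proteins, 22 fell (median log2 change -2.76). The counts of this list and of the plasma proteins stand beside 20.3% falling and 20.1% rising over all features. The 2 that did not pass were SAA1 and SAA2, acute-phase amyloid proteins with near-identical sequences, at -0.52 each, where the fold was below 1.5 although the adjusted p was 0.000124 and 0.000642.

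Of 17 tested features of the urea cycle and amino acid breakdown, 14 fell (median log2 change -2.91, or -2.32 with OTC, at 0 counts in all C4 libraries, at its bound). Over all features 20.3% fell and 20.1% rose, beside which the fatty acid and cholesterol counts below stand as well. AGXT, which detoxifies glyoxylate, fell from 1137, 915 and 973 CPM to 9.58, 11.2 and 12.3 CPM and from 712, 622 and 539.7 CPM to 8.02, 3.37 and 5.15 CPM. ARG1 had a log2 change of -5.70 and CPS1 of -2.91. Of 21 features of fatty acid oxidation and ketone synthesis, 16 fell, led by FABP1. PDK4, a kinase that shuts off glucose oxidation, was the 1 that rose (0.86), with a call in tacedinaline (1.30) and none in mocetinostat (0.41). CPT1A, the gate of mitochondrial fatty acid import, did not pass (0.07, SE 0.234, adjusted p = 0.818). Of 24 features of cholesterol synthesis, 16 fell and 1, of PMVK, rose (median log2 change -0.90), a rise lost without batch 1, without tacedinaline C4 batch 2 and with thinned counts. HMGCS1, the cytosolic HMG-CoA synthase, had a log2 change of -2.15.

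Features of lipid droplet proteins more often fell than rose. Of 14 tested features, 8 fell, 1 rose and 5 did not pass (median log2 change -0.92), beside 20.3% falling and 20.1% rising over all features. Among the 8 were CIDEC (-4.38), which drives droplet fusion, and both features of the lipase inhibitor G0S2 (-3.40 and -2.71). FABP4, the fatty acid carrier of fat cells, rose from 3.61, 0.880 and 4.34 CPM to 106, 125 and 106 CPM in mocetinostat and from 3.32, 4.63 and 2.18 CPM to 122, 144 and 119.7 CPM in tacedinaline (log2 change over both 5.26, SE 0.227, adjusted p = 3.87e-16). Its C4 libraries lay at similar levels in both chemicals. PLIN2, the main droplet coat of hepatocytes, was called falling over both chemicals (-0.96), but the change lay in mocetinostat. It went there from 343, 205 and 387 CPM to 86.8, 95.9 and 71.2 CPM, and in tacedinaline from 73.8, 63.4 and 58.1 CPM to 69.7, 74.6 and 60.6 CPM (log2 change 0.07). The chemicals were apart at C1, and their C4 libraries lay close together.

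Of 23 tested cell division features, 11 fell, none rose and 12 did not pass, with a median log2 change of -0.46. Over all features 20.3% fell and 20.1% rose. The deepest fall was that of TYMS, which makes thymidylate (-2.04, SE 0.138, adjusted p = 3.41e-12), and MKI67, the usual marker of cycling cells, had -0.62 (SE 0.127), a call lost under 6 alternatives. With libraries scaled by their totals alone, 6 of the division features were called falling and 1 rising, and without batch 2 there were 7 falling. CDKN1A, the cell cycle inhibitor that deacetylase inhibitors are known to induce, had at most 14 counts in any of the 12 libraries and could not be tested. Of 17 features of the BCL2 family, 4 rose and 5 fell, near the background of 20.1% rising and 20.3% falling. The rising ones were 2 features each of BMF (1.57 and 1.61) and BCL2L11 (1.21 and 1.55), which promote cell death. The falling ones were the death effector BAX (-1.13), BOK (-1.07), 2 features of BID (-1.02 and -0.95) and the survival gene BCL2L1 (-0.73). Both calls of BID were lost without batch 1 or without batch 2, and the second of BMF without batch 1. Of 18 stress features, CHAC1 (2.25) and ASNS (1.04) rose, and 9 did not pass. The 7 that fell were XBP1 (-3.14), TRIB3 (-2.23), HERPUD1 (-1.36), DNAJB9 (-1.26), HSPA5 (-1.10) and 2 features of DDIT3 (-0.87 and -0.75). CHAC1 and ASNS are known targets of the amino acid response, and so are TRIB3 and DDIT3, which fell.

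Among the markers of liver cell types, the summed share of hepatocyte markers fell and that of biliary markers rose. All 9 hepatocyte marker features fell, and their summed share went from 3.58% to 4.96% of counts over the C1 libraries to 0.535% to 1.34% over the C4 libraries. The marker counts here and below stand beside 20.3% falling and 20.1% rising over all features. Of 5 tested biliary or progenitor features, SOX9, a factor of biliary cells (1.54, SE 0.158, adjusted p = 8.22e-09), and SPP1, osteopontin (2.14, SE 0.310, adjusted p = 2.43e-06), rose, while 3, both features of KRT19 among them, did not pass. The biliary list went from 0.00769% to 0.0154% of counts over C1 to 0.0176% to 0.0225% over C4, and EPCAM was at 0 in all 12 libraries. The stellate or fibroblast list lay at 0.0178% to 0.0263% at C1 and 0.0157% to 0.0245% at C4, with 5 features falling, 2 not passing and COL1A1 rising (1.14). CCN2, of the matrix list and not a marker, also rose (1.78), while COL3A1 fell (-2.24). Endothelial markers took at most 0.00121% of counts in any library, and the leukocyte markers PTPRC, CD3E and MS4A1 were at 0 in all 12. CD14 (-2.19) and CD68 (-0.92) fell. Whether a change in the mix of cells had a part in the fall of hepatocyte genes was not tested.

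The counts of the lists that follow stand beside 20.1% rising and 20.3% falling over all features. Of 18 features of antigen presentation, 6 fell and 12 did not pass, with PSMB8, an immunoproteasome subunit (-1.86), and ERAP1, which trims peptides (-1.71), falling most. HLA-C was the weakest of the 6 (-0.77, adjusted p = 0.0495), and its change of -1.76 in mocetinostat stood beside 0.15 in tacedinaline. Its call was lost under 12 alternatives, DESeq2 and the fit with batch as a block among them. Of 17 interferon-stimulated features, 2 rose, IFI6 (0.88) among them, 5 fell, led by IFIT3 (-3.41), and 10 did not pass, beside 20.1% rising and 20.3% falling over all features. Of 11 keratin, biliary or progenitor features, KRT80 (2.17), SPP1, SOX9 and KRT8 (0.67) rose, and MUC1 (-1.12) and AFP (-1.39) fell. Without batch 1, without batch 3 or with thinned counts, 0 falling calls of this list were left, and MUC1 also lost its call with batch as a block (adjusted p = 0.065) and with a block within each chemical (adjusted p = 0.0825). Of 27 matrix and mesenchymal features 4 rose and 11 fell, and of 7 features of cyclin-dependent kinase inhibitors and D cyclins CCND3 rose (1.36), while CCND2 and CDKN2C fell with 1 feature each. Of these falls, 0 were left without mocetinostat C4 batch 2, without batch 1, without batch 3 or with libraries scaled by totals alone, and that of CCND2 was also lost with a batch block within each chemical (adjusted p = 0.0579).

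The 5 concentrations of each chemical placed C4 on the upper part of the response. At C2 (0.531667 µM mocetinostat, 3.43 µM tacedinaline) mean SYT11 was 2.03 and 2.07 CPM, at C3 (1.595 and 10.29 µM) 26.3 and 12.0 CPM, at C4 56.3 and 46.5 CPM and at C5 (3.9 and 44 µM) 76.9 and 52.9 CPM. HAO2 averaged 482.6 and 361 CPM at C2, 12.0 and 10.9 CPM at C3, 4.93 and 4.34 CPM at C4 and 6.54 and 3.60 CPM at C5. CYP3A4 in mocetinostat was already at 12.8 CPM at C2, from 70.5 CPM at C1, while in tacedinaline it was at 43.3 CPM at C2, from 73.0 CPM at C1. Both SYT11 and HAO2 still moved between C3 and C4 in both chemicals. These are means of 3 libraries, and steps between neighbouring concentrations were not tested.

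**Figure D4:**
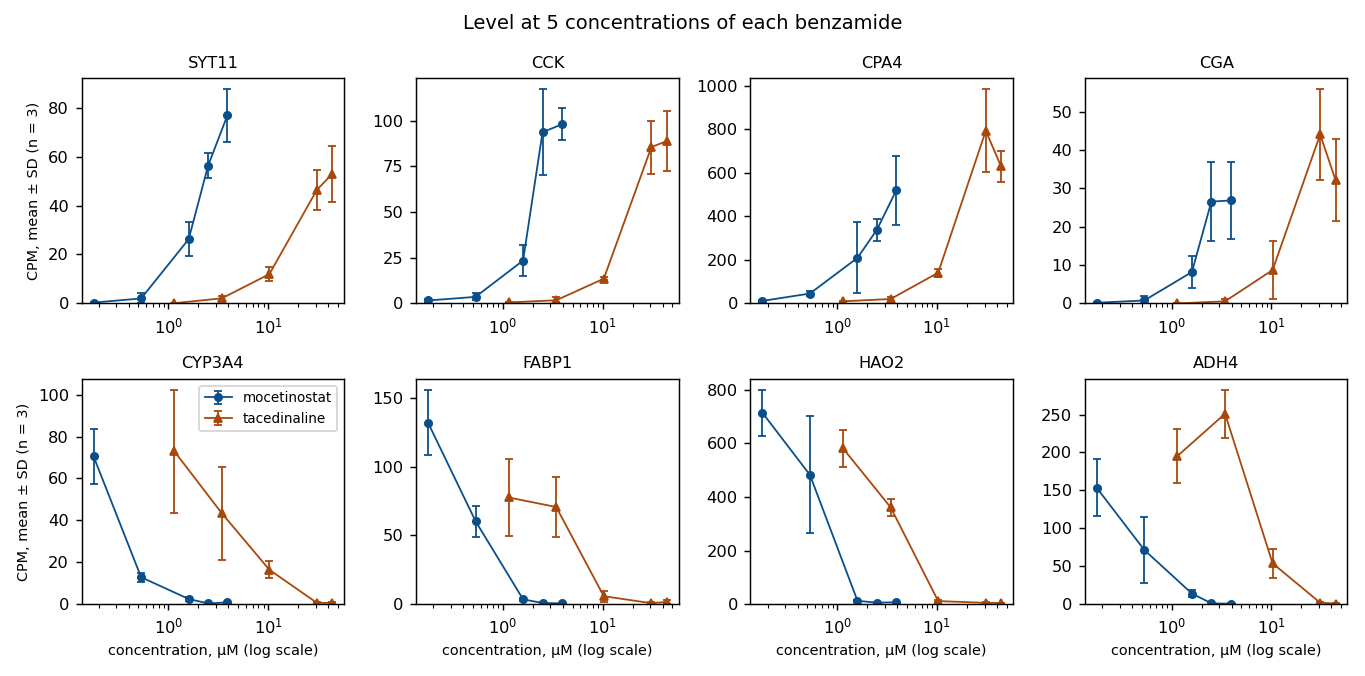
Mean level in CPM (bars are the SD of 3 libraries) of 4 rising genes (top) and 4 falling genes (bottom) at the 5 concentrations of mocetinostat and tacedinaline, on a log concentration axis. From C3 on the means of HAO2 lie at or below 12.0 CPM, and those of SYT11 rise from 26.3 to 56.3 CPM in mocetinostat and from 12.0 to 46.5 CPM in tacedinaline between C3 and C4.

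The same question was put to 12 other libraries of these chemicals, C5 against C2, which had no part in the test of C4 against C1. There, 2131 of 12990 features rose (16.4%) and 2570 fell (19.8%). Of the common rising features 1610 (61.8%) were called rising again, which is 75.6% of the rising features of the other libraries, and 4 were called falling. Of the common falling features 1899 (72.5%, and 73.9% of those of the other libraries) were called falling again and none rising. All 20 leading genes were called in the same direction in the other libraries, where rising genes near 0 at C2 could pass the filter through C5 alone. Without batch 2 the other libraries gave 2548 calls in place of 4701. HDAC3 (2.06) rose again there by a similar log2 change, while SPP1 (0.20) and KRT80 (0.42) showed smaller values than at C4 against C1. Some lists had fewer rising calls there. These were the class I deacetylases (1, against 2 before), the corepressor subunits (3, against 7) and the neuronal genes (4, against 8). The 5 metallothioneins again rose and the 27 plasma protein features again fell.

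Vorinostat, scriptaid and panobinostat, of other structure, are given beside the benzamides at their own C4 against C1. Their doses again differ, and no difference was tested. Apicidin, trichostatin A and valproic acid, also of the series, were not set beside them here. Of the 10 leading falling genes, vorinostat, a hydroxamate, had 10 called falling (18.6% of all features were), scriptaid 6 (0.758%) and panobinostat 4 (3.98%). Of the 10 leading rising genes, 6 could be tested in vorinostat and all 6 were called rising (16.3% of all features were). In scriptaid 2 could be tested and 1 rose (0.287%), and in panobinostat 1 could be tested and rose (3.14%). A gene near 0 counts at C1 can pass the filter on low counts through its C4 level alone. That favours a rising call, so the counts of rising genes are a description. The fall of HAO2 was -6.42 in vorinostat and -5.09 in scriptaid, and the rise of CPA4 was 4.04 in vorinostat and 3.59 in scriptaid. In panobinostat both were called as well, at -1.44 for HAO2 and 1.18 for CPA4.

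Falling genes stood apart from the rest in the base composition of the promoter, a property the choice of libraries did not use. Rising genes lay close to genes not called. RefSeq promoters were found for 2005 of 2452 rising genes and 1948 of 2411 falling genes. CpG content, the observed over the expected number of CpG from the C and G content, had a median of 0.839 for rising genes, 0.745 for falling genes and 0.849 for genes not called. Promoters below 0.5 made up 13.9% of those of rising genes, 29.8% of those of falling genes and 11.3% of those not called, so a CpG-poor promoter was most frequent among the genes that fell. GGGCGG, the core of the GC box, was in 72.6% of rising, 58.2% of falling and 67.8% of all tested promoters, and in 44.6% of all 27305 RefSeq promoters. CCAAT was in 41.0%, 32.8% and 37.6% of those classes and 35.7% of all, TATAAA in 7.18%, 9.24% and 6.44% and 12.0% of all, and CACGTG in 8.43%, 9.19% and 9.95% and 7.44% of all. S100A7 shows that single genes go against the shares. It had the largest fitted rise, from 0 counts at C1, and its promoter, printed above, has 3 CpG and a ratio of 0.122. A match to these letters is a description and not a binding site, and genes with similar promoters are not independent, so no test was made.

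**Figure D5:**
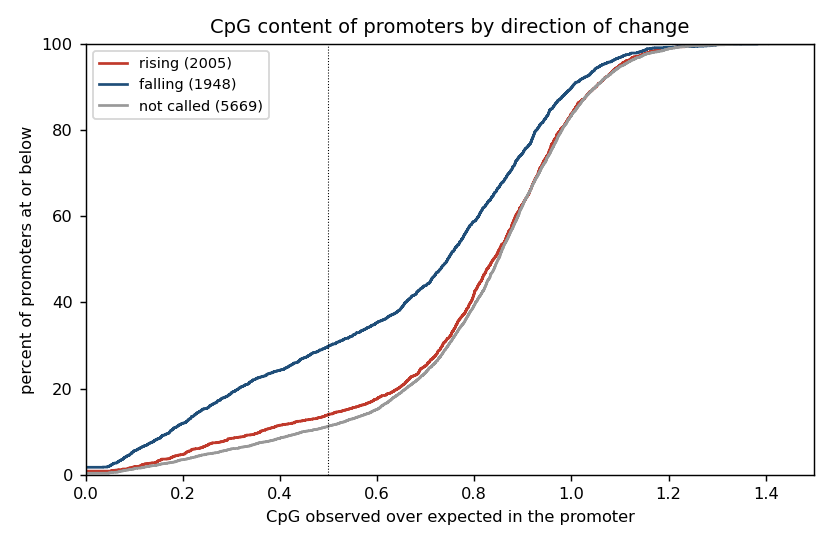
Cumulative percent of promoters (vertical axis) at or below a CpG observed over expected ratio (horizontal axis) for rising, falling and not called genes. At the dotted line, a ratio of 0.5, the falling genes stand at 29.8% and the rising genes at 13.9%.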

How the data were processed

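Counts per detector probe pair were analysed as the authors deposited them, 22069 features by 118 libraries. The submitters' processing notes name bcl2fastq 2.20.422, fastp 0.23.2, STAR 2.7.10b and DESeq2 1.38.0, without their roles. The genome build and annotation are not given in the sources used here. The members and gene lists were chosen with earlier results of these data known. Groups came from the labels, and 1 feature (SEC13) was left out.

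Features passing filterByExpr were fitted in R 4.3.3 with edgeR 4.0.16 (limma 3.58.1), TMM factors and the chemical as a block, and p-values were adjusted by Benjamini-Hochberg over all features tested. Each chemical alone, and C5 against C2, were fitted the same way. A call needed an adjusted p under 0.05 and a 1.5-fold change. CPM were scaled by TMM over all libraries of both chemicals. Library totals ran from 1243102 to 5220707, and intervals and the floor of 3 counts cover counting error only (95% exact).

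The 10 genes named in each direction had the largest change among features called in both chemicals, with no overlap between C4 and C1 and a mean of at least 10 CPM. Beside them stand members of the lists, genes with at most 3 counts in every C1 library and genes called in opposite directions. Of the 10 falling genes 1, and a few list members, are counted but not reported here by name. Probes of near-identical gene copies (PRR20, CYP3A, metallothionein, SAA, HLA and golgin families) may share reads.

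The labels tie replicate numbers to HepaRG batches, which pairs the libraries. Deviations from the group means had a median r of 0.0216 in 18 pairs of the same batch and -0.00162 in 36 pairs of different batches. No 2 libraries of a group agreed within sampling noise (lowest chi-square per degree of freedom 3.68). Symbols were matched to RefSeq (GRCh38.p14), 18807 of 19470, and 2094 symbols had several features. The fits were tested on simulated data. Alternatives were DESeq2 1.42.0, other size factors, no filter, thinned counts, batch blocks and leaving out each batch or library.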

Additional observations from a re-analysis of the deposited data

Results flagged for a closer look

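The 428 features examined were the leading genes, the tested list members and ZNF273, which had already been found by its opposite calls. The leading genes had been chosen to move the same way in both chemicals, so the number flagged is not a rate over all features. Of the 428, 3 moved in opposite directions in the chemicals in every batch, with a call in at least 1 chemical. The difference was not tested, and the doses differed. ZNF273 had a log2 change of 1.26 (SE 0.275) in mocetinostat and -0.79 (SE 0.282) in tacedinaline. DGAT2, an enzyme of triglyceride synthesis, had -1.01 (adjusted p = 0.00105) in mocetinostat and 0.39 (adjusted p = 0.158) in tacedinaline. KRT18, a keratin of hepatocytes, had -0.32 (adjusted p = 0.286) in mocetinostat and 0.79 (adjusted p = 0.00516) in tacedinaline.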

How the results depend on the processing

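Over all alternatives the common response held 4374 (thinned counts) to 5645 calls (library totals alone), mocetinostat 3413 to 4866, tacedinaline 3332 to 4473 and the calls shared by both 2299 to 3195. Scaling by library totals alone moved the median log2 change over all features from 0.05 to 0.23, gave 3555 rising and 2090 falling common calls, and gave 3197 rising calls in the C5 against C2 libraries in place of 2131. The batches pair the libraries, and with the replicate block the common response had 5186 calls (2580 rising, 2606 falling), of which 5101 were among the 5227, or 5134 calls with a block within each chemical, of which 5032 were. Without 1 batch the C5 against C2 libraries gave 2548 (batch 2) to 3924 calls, 966 to 1802 rising and 1582 to 2138 falling, and the cause was not tested. DESeq2 gave 5392 common calls, with 1 adjusted p not given. Among log2 changes of single features under all alternatives, 9114 kept their side of the threshold, 97 newly passed it and 170 no longer passed. No called change reversed its sign. A change of sign with no call in either fit was counted as kept. Of the counts in gene lists, 1213 stayed within 1.5 times and 63 did not. Features near 0 counts in 1 group are limited by depth, and their fitted folds depend on the prior count.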
